A study of Mus musculus with 6 samples.

Results

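The comparison described here set C2C12 cells differentiated for 4 days with 1 mM 4-phenylbutyric acid (4-PBA) against the same cells before differentiation. C2C12 is an established mouse myoblast line that stops dividing and fuses into multinucleated myotubes when serum is lowered, and 4-PBA is a short aromatic fatty acid that inhibits histone deacetylases and eases protein folding. The members were the 4 libraries labelled 4-PBA at day 4 and untreated at day 0, of 6 in all, compared across the 17433 genes with enough counts to be tested, of 43074 gene symbols in the table. The day 0 cells were wild type, had received neither 4-PBA nor vehicle and came from growth medium with fetal bovine serum. The 4-PBA cells were wild type and had spent 4 days in medium with horse serum and 1 mM 4-PBA. The remaining 2 libraries came from wild-type cells kept for those 4 days in the same medium with the vehicle DMSO. Between day 0 and day 4 with 4-PBA, the medium, the time and the drug changed together and cannot be told apart. DMSO values are therefore given beside those of 4-PBA for some of the genes. A gene named without a DMSO value may still differ from DMSO. All groups were 1 cell line in culture, with 2 libraries each, and nothing in the labels tells whether the replicates came from different cultures; p-values then measure only the spread between these libraries.

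As background, myoblasts are held in proliferation by growth factors in serum, which keep cyclin D and Id proteins high. When serum is lowered, MyoD and its partners of the MEF2 family switch on myogenin, the cells leave the cell cycle with the help of the inhibitor p21 and the retinoblastoma protein, and myogenin drives the genes for fusion and for the contractile apparatus. The new myotubes then assemble sarcomeres from myosin thick filaments and actin thin filaments anchored at Z discs, build the calcium release machinery that links excitation to contraction, and lay down a basement membrane.

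The libraries held between 47908926 and 74697397 counts, so counting error was small for all but the rarest genes. The 10 most abundant genes took 4.84% to 5.09% of a library and mitochondrial genes 3.14% to 3.43%. Values are given as CPM, which here are counts scaled to a common library size after TMM normalisation, for replicates 1 and 2 of a group in that order. A gene was called when its adjusted p from edgeR's quasi-likelihood test was under 0.05, and standard errors (SE) belong to the log2 fold change. The cell type labels were checked against marker genes. The myoblast markers Myod1 (a master regulator of the muscle lineage) and Des (desmin) were present in every library, with 95.8 and 99.1 CPM of Myod1 and 877 and 885 CPM of Des at day 0. Of the markers of other cells, 4 of 7 endothelial, 4 of 7 immune and 4 of 6 neural or glial genes had enough counts to test, and each list summed to at most 6.15 CPM in any library. The 8 adipocyte markers, 3 of them tested, summed to 112 to 113 CPM at day 0 and 66.2 to 71.9 CPM with 4-PBA, most of it Lpl, a lipase that muscle also makes. The 8 osteoblast and chondrocyte markers, 3 of them tested, summed to 79.5 to 81.5 CPM at day 0 and 52.7 to 55.6 CPM with 4-PBA, most of it Runx2. No marker of these lists was at 0 in all libraries.

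With 4-PBA, edgeR called 5787 genes higher (33.2% of those tested) and 5655 lower (32.4%) than at day 0. At least a 2-fold change was seen for 2224 of the genes called higher (12.8% of those tested) and 1475 of those called lower (8.46%). Larger changes were mostly rises: 1059 genes were called at least 4-fold higher and 445 at least 4-fold lower. With DMSO, which was compared with the same day 0 libraries, 5886 genes were called higher (33.8%) and 5678 lower (32.6%). The direct comparison of the 2 day 4 groups called 371 genes higher with 4-PBA (2.13%) and 484 lower (2.78%); it called 137 and 204 without 4-PBA replicate 1, 112 and 183 without 4-PBA replicate 2, and 634 higher without DMSO replicate 1. The 30 gene programmes below hold 746 tested genes, of which 367 were called higher and 294 lower with 4-PBA than at day 0. Over all tested genes the median log2 fold change was 0.018. The list medians below stay the same to the second decimal when Myl3, Sypl2 and Ppp1r3a, which had no counts at day 0, are set at their lower bounds.

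**Figure D1:**
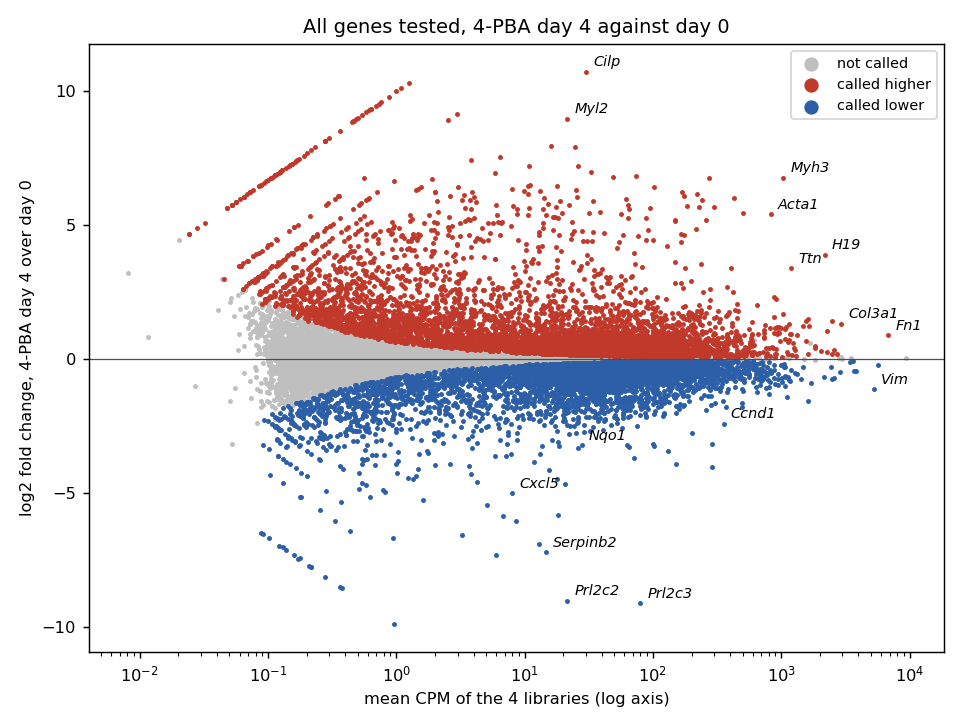
Each point is 1 of the 17433 tested genes, with the mean CPM of the 2 day 0 and 2 4-PBA libraries on a log axis and the fitted log2 fold change from day 0 to day 4 with 4-PBA. Red and blue mark genes called higher (5787) and lower (5655); the straight rows of points at the far left are genes with few or no counts in 1 group, whose fitted values depend on the prior count.

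The myogenic regulators, the transcription factors that set muscle identity, divided with 4-PBA. Of 19 tested members of 20, 12 were called higher and 4 lower, against 33.2% and 32.4% of all tested genes. Their median log2 fold change was 0.33 (0.69 without day 0 replicate 2). Myog encodes myogenin, which drives terminal differentiation, and stood at 7.94 and 7.85 CPM at day 0 and 289 and 287 CPM with 4-PBA. Both 4-PBA libraries were far above both day 0 libraries, a log2 fold change of 5.19 (SE 0.046, adjusted p 3.15e-41). The DMSO libraries held 277 and 297 CPM, on either side of the 4-PBA libraries, and the difference from 4-PBA was 0.0052 on the log2 scale (SE 0.033, adjusted p 0.972). Mef2c, a cofactor of myogenin on muscle genes, rose from 7.47 and 7.52 to 64.3 and 68.9 CPM, and its relative Mef2a from 125 and 125 to 335 and 326 CPM. Myod1 rose only slightly, from 95.8 and 99.1 to 113 and 108 CPM (log2 fold change 0.18, SE 0.038, adjusted p 0.000118).

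Other regulators did not all rise. Myf5, the factor of proliferating myoblasts, fell from 50.4 and 49.98 to 23.1 and 24.5 CPM, a log2 fold change of -1.07 (SE 0.057, adjusted p 3.46e-18). Msc, which encodes musculin, a repressor of MyoD targets, fell from 41.7 and 38.4 to 10.8 and 12.6 CPM. Pax7, the factor of satellite cells, was rare in every library but was called higher, at 0.309 and 0.299 CPM at day 0 and 1.401 and 1.05 CPM with 4-PBA. Myf6, a regulator of mature fibres, had 0.0823 and 0.199 CPM at day 0 and 0.129 and 0.193 CPM with 4-PBA and was not called. So Myog, Mef2a, Mef2c and Pax7 rose, Myod1 stayed near its day 0 level, Myf5 and Msc fell, and Myf6 was not called.

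Upstream of the Myog start site, the 250 bases below hold 2 copies of CANNTG, the E-box letters that MyoD and myogenin are known to bind, and are shown because Myog is the switch of the programme. All promoters printed here hold copies, while the same windows of Actc1 and Myl4, which also rose, hold 0. Acta1 and Casq2 hold 2 and Myl1 holds 1, and these are not printed. The Myog bases are shown with those of Chrng, which encodes the gamma subunit of the embryonic acetylcholine receptor and has 3 copies. Those of Myh3, the embryonic myosin heavy chain, have 1. Sequences and coordinates are RefSeq's for GRCm38.p6, not the build of the counts, and run 5′ to 3′ towards the start site on the plus strand; capitals mark CANNTG on either strand and, in Myh3, also TATAAA.
Myog, chr1:134289754-134290003: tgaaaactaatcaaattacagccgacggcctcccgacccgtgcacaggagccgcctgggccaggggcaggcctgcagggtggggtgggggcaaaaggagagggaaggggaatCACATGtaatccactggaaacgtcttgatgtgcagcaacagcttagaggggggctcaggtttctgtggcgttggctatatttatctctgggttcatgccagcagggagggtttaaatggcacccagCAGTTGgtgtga
Chrng, chr1:87205561-87205810: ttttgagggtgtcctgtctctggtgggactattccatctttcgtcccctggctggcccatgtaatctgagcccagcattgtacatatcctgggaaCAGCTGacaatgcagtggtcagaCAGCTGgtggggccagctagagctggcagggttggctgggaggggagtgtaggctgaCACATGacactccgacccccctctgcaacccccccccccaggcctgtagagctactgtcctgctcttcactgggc
Myh3, chr11:67078050-67078299: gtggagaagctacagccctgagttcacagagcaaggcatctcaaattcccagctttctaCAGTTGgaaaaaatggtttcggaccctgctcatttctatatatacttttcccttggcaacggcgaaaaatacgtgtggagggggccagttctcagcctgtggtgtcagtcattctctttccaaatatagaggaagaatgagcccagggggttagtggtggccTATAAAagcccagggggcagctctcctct

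Promoters of the contractile genes were then searched as a group for the same letters. CANNTG was found in 78.7% of 94 promoters of 80 of the 107 members of the myosin, actin, Z disc and excitation-contraction lists. It was found in 66.2% of all 32851 promoters of the same length and in 59% of the promoters of tested genes. By list it was 86.2% for myosin, 91.3% for actin, 62.5% for the Z disc and 72.2% for excitation-contraction. Among the other muscle lists it ran from 41.7% for fusion and adhesion and 47.1% for the myogenic regulators up to 86.1% for muscle energy genes. CAGCTG, one of the forms of CANNTG, was found in 33% of the contractile promoters, in 13% of all promoters and in 12.8% of those of tested genes. In the other muscle lists CAGCTG ran from 0% for the dystrophin complex and 5.88% for the myogenic regulators up to 38.9% for muscle energy genes. A match describes the letters in this window and is no evidence of binding.

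Fusion and adhesion genes mostly rose with 4-PBA: 17 of 26 tested members were called higher, 12 of them at least 2-fold, and 4 were called lower. Mymk and Mymx encode myomaker and myomixer, the membrane proteins that together fuse myoblasts. Mymk stood at 14.2 and 13.1 CPM at day 0 and 335 and 338 CPM with 4-PBA, a log2 fold change of 4.63 (SE 0.051, adjusted p 3.19e-25). Mymx stood at 0.823 and 0.712 CPM at day 0 and 51.1 and 49.4 CPM with 4-PBA, a log2 fold change of 6.05 (SE 0.098, adjusted p 2.45e-33). For both genes the 4-PBA libraries lay far above the day 0 libraries.

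With DMSO both reached a higher level still. Mymx reached 60.6 and 67.1 CPM in the DMSO libraries, above both 4-PBA libraries, and the difference was -0.35 on the log2 scale (SE 0.053, adjusted p 5.66e-05). For Mymk, with 359 and 397 CPM in the DMSO libraries, the difference was -0.17 (SE 0.039, adjusted p 0.0134); it was not called without DMSO replicate 2 (adjusted p 0.0909) or without either 4-PBA library. Among the adhesion receptors Ncam1 rose from 127 and 129 to 709.8 and 719 CPM, and Itga7, the laminin receptor of muscle fibres, from 849 and 861 to 2232 and 2264 CPM. Ncam1 reached 783 and 815 CPM with DMSO (difference -0.16, SE 0.029, adjusted p 0.00042). Cdh15, the muscle cadherin, rose from 292 and 294 to 600.1 and 596 CPM and reached 564 and 544 CPM with DMSO. The netrin receptor Neo1 was among the 4 members that fell, from 187 and 182 to 107 and 104 CPM.

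Of the 30 lists, those of the thick and thin filament had the highest medians. Of 29 tested genes of the myosin thick filament, 28 were called higher, each at least 2-fold, with a median log2 fold change of 5.45. Together they took 0.0411 and 0.0408% of the normalised counts at day 0 and 0.831 and 0.852% with 4-PBA, against 0.896 and 0.954% with DMSO. Myh3 stood at 19.1 and 18.7 CPM at day 0 and 2014 and 2072 CPM with 4-PBA, a log2 fold change of 6.76 (SE 0.040, adjusted p 3.55e-44). The DMSO libraries held 1949.6 and 2085 CPM of it, which overlap those with 4-PBA.

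Per length, as RPKM (CPM per kilobase of exon), embryonic Myh3 was by far the main myosin heavy chain with 4-PBA, at 337, followed by Myh1 of fast fibres at 19.99, perinatal Myh8 at 4.17 and slow Myh7 at 4.005. Slow Myh7 rose from 0.6996 and 0.669 to 33.1 and 35.9 CPM (log2 fold change 5.66, SE 0.11) but reached 47.6 and 46.6 CPM with DMSO, a difference of -0.45 (SE 0.059, adjusted p 6.07e-06). Myh1 likewise rose from 3.02 and 2.35 to 122 and 132 CPM, and its DMSO libraries lay higher, at 152 and 156 CPM (difference -0.28, adjusted p 0.000152). Of the light chains, Myl4 rose from 5.72 and 4.54 to 529 and 554 CPM and Mylpf from 23.02 and 22.2 to 983 and 987 CPM. Ttn, which encodes the molecular spring titin, rose from 212 and 210.4 to 2176 and 2207 CPM, with DMSO at 2614 and 2691 CPM (difference -0.28, SE 0.026, adjusted p 1.28e-08). Mylk2, the light chain kinase of skeletal muscle, was the 1 member called lower, from 19.4 and 18.7 to 11.1 and 10.7 CPM. With DMSO it stood at 14.2 and 14.7 CPM (difference -0.41, SE 0.080, adjusted p 0.00135).

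In the actin thin filament 23 of 25 genes were called higher, each at least 2-fold, with a median log2 fold change of 4.77. Acta1, the skeletal actin, stood at 39.1 and 37.3 CPM at day 0 and 1601 and 1636 CPM with 4-PBA, a log2 fold change of 5.41 (SE 0.035, adjusted p 6.78e-45). Cardiac actin, Actc1, which embryonic muscle also uses, stood at 4.16 and 4.52 CPM at day 0 and 332 and 328 CPM with 4-PBA (log2 fold change 6.24). The DMSO libraries held 379.9 and 389 CPM of Actc1, both above both 4-PBA libraries (difference -0.22, SE 0.031, adjusted p 1.64e-05). Troponin subunits, which make the filament respond to calcium, rose in slow and fast forms alike: slow Tnni1 from 7.26 and 8.404 to 462 and 492 CPM and fast Tnnt3 from 8.93 and 8.53 to 438 and 455 CPM. Tpm3, a tropomyosin, fell from 308 and 314 to 235 and 239 CPM while Tpm1 rose from 549.8 and 557 to 1241 and 1233 CPM. Neb, the giant ruler of the thin filament, rose from 6.48 and 7.32 to 359 and 364 CPM and reached 456 and 489 CPM with DMSO, the clearest shortfall of the list (difference -0.39, SE 0.035, adjusted p 1.94e-08).

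Z disc genes rose in 21 of 23 cases, with a median log2 fold change of 2.19. Actn2, the alpha-actinin that crosslinks actin at the Z disc, stood at 0.267 and 0.214 CPM at day 0 and 22.8 and 20.4 CPM with 4-PBA. Csrp3, a muscle LIM protein, rose from 0.473 and 0.726 to 36.6 and 37.8 CPM. Des, which was already abundant in myoblasts, rose from 877 and 885 to 2044 and 2061 CPM. Fhl3, a LIM protein, was the 1 Z disc gene called lower (log2 fold change -0.46).

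**Figure D2:**
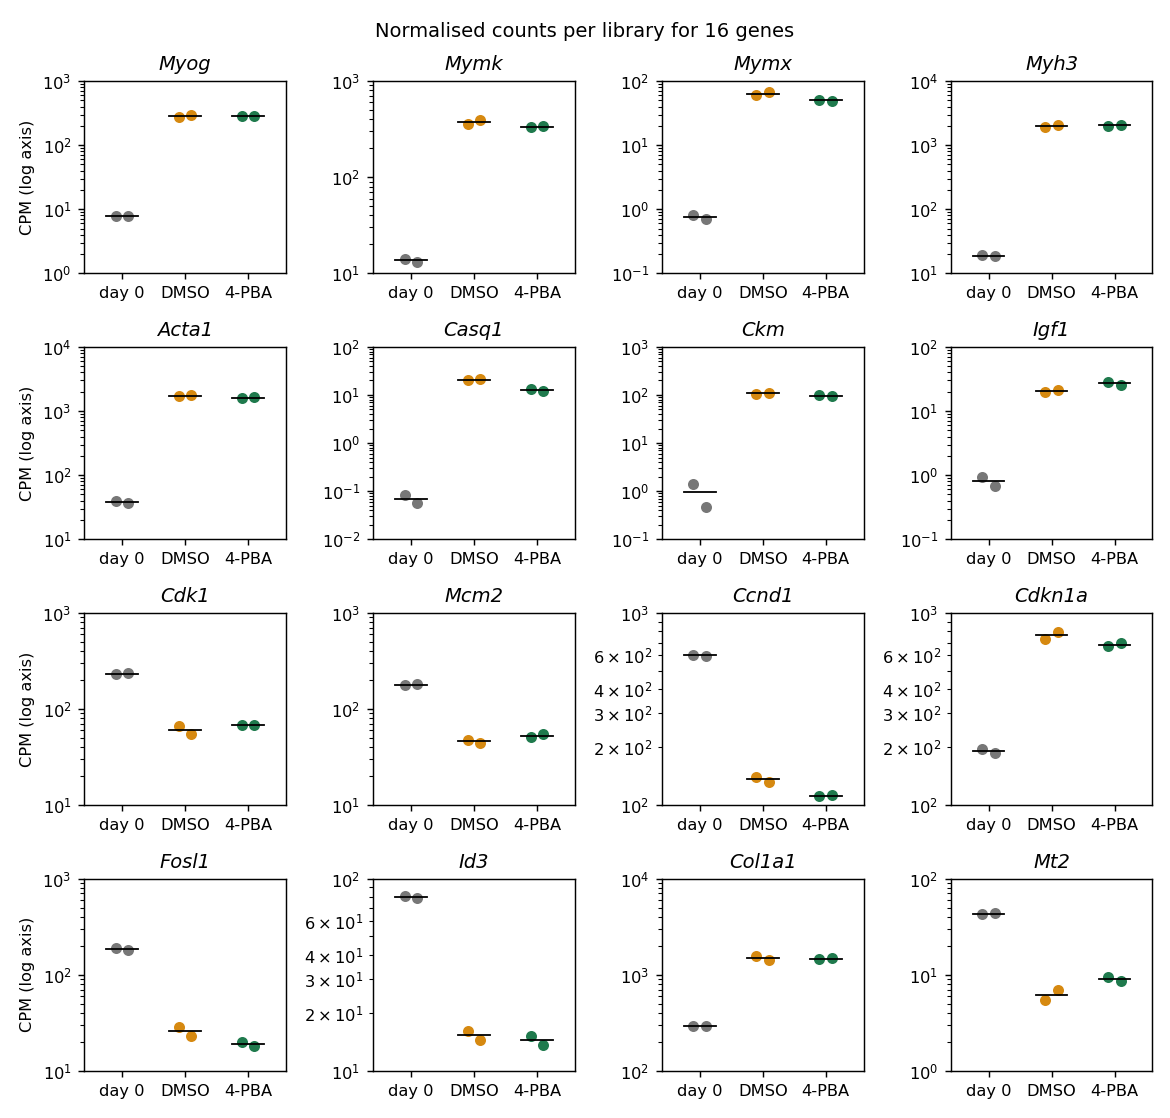
CPM on a log axis for 16 genes in each of the 6 libraries, with points for libraries and a bar for the mean of each group's 2 libraries. For all 16 genes the 4-PBA libraries lie apart from the day 0 libraries. Both 4-PBA libraries also lie below both DMSO libraries for Casq1, Mymx, Mymk, Acta1, Ckm and Ccnd1, among others. Of these, Ckm was not called against DMSO. Acta1 was called only narrowly (difference -0.094, edgeR adjusted p 0.045). Its call was lost with DESeq2 size factors (edgeR adjusted p 0.0519), with library size only (0.071) and with a replicate block (0.0869). For Igf1 and Mt2 both 4-PBA libraries lie above both DMSO libraries.

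Genes of excitation-contraction coupling, which carry the signal from the surface membrane to calcium release, rose in 23 of 26 cases. Their median log2 fold change was 2.40. Cacna1s, the calcium channel that senses voltage, stood at 2.22 and 2.42 CPM at day 0 and 124 and 127 CPM with 4-PBA (log2 fold change 5.75, SE 0.062). Ryr1, the release channel it gates, rose from 37.1 and 38.1 to 437 and 436 CPM, and the calcium store protein Casq2 from 5.43 and 4.83 to 343 and 348 CPM. The voltage sensor, the release channel and the store thus rose together.

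Casq1, the calsequestrin of fast fibres, showed one of the larger differences from DMSO among the contractile genes. It had 4 and 4 counts in the day 0 libraries, 13.3 and 12.3 CPM with 4-PBA and 20.6 and 21.3 CPM with DMSO. Both 4-PBA libraries lay far above day 0 and below both DMSO libraries, a difference from DMSO of -0.71 (SE 0.084, adjusted p 8.53e-07). Atp2a1, the calcium pump that refills the store, rose from 6.77 and 8.504 to 169 and 169 CPM and reached 210.3 and 216 CPM with DMSO (difference -0.34, adjusted p 6.48e-05).

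At the neuromuscular junction 12 of 13 genes were called higher. Chrng stood at 5.78 and 6.296 CPM at day 0 and 148 and 147 CPM with 4-PBA, a log2 fold change of 4.60 (SE 0.062, adjusted p 1.43e-24). With DMSO it reached 179 and 202 CPM, both libraries above both with 4-PBA (difference -0.37, SE 0.044, adjusted p 1.82e-05). The alpha subunit Chrna1 rose less, from 455 and 469 to 738 and 727 CPM. Etv5, a transcription factor that fell from 24.6 and 23.4 to 15.3 and 14.2 CPM, was the 1 member called lower. The dystrophin complex, which ties the cytoskeleton to the matrix, rose in 14 of 16 members; Dag1, dystroglycan, rose from 230.3 and 236 to 590.5 and 594 CPM.

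Muscle energy genes rose more often than they fell. Of 25 tested, 16 were called higher and 5 lower, with a median log2 fold change of 1.33 (0.929 without 4-PBA replicate 1). The summed share of the list went the other way. It was 0.576 and 0.577% of normalised counts at day 0, 0.441 and 0.455% with 4-PBA and 0.468 and 0.450% with DMSO. Ckm, the muscle creatine kinase that buffers ATP, had 1.44 and 0.4701 CPM at day 0, where the libraries differed, and 97.5 and 94.6 CPM with 4-PBA. Its log2 fold change of 6.78 (SE 0.28, adjusted p 0.000182) was 7.67 without day 0 replicate 1 and 6.06 without day 0 replicate 2. Mb, the oxygen store myoglobin, rose from 1.23 and 1.32 to 143 and 149 CPM. Of the glycolytic genes known from growing cells, Pkm fell from 3112 and 3116 to 1806 and 1889.6 CPM and Ldha from 1053 and 1067 to 564 and 585 CPM.

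Eno3, the muscle enolase, was among those not called. It stood at 407 and 412 CPM at day 0 and 403 and 404 CPM after 4-PBA (a log2 fold change of -0.021, SE 0.029, adjusted p 0.544). The DMSO libraries held 464 and 454 CPM, above both with 4-PBA (difference -0.19, SE 0.029, adjusted p 6.48e-05). Oxidative phosphorylation subunits did not rise as a group: 3 of 28 were called higher and 17 lower, none of them 2-fold, with a median log2 fold change of -0.13.

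**Figure D3:**
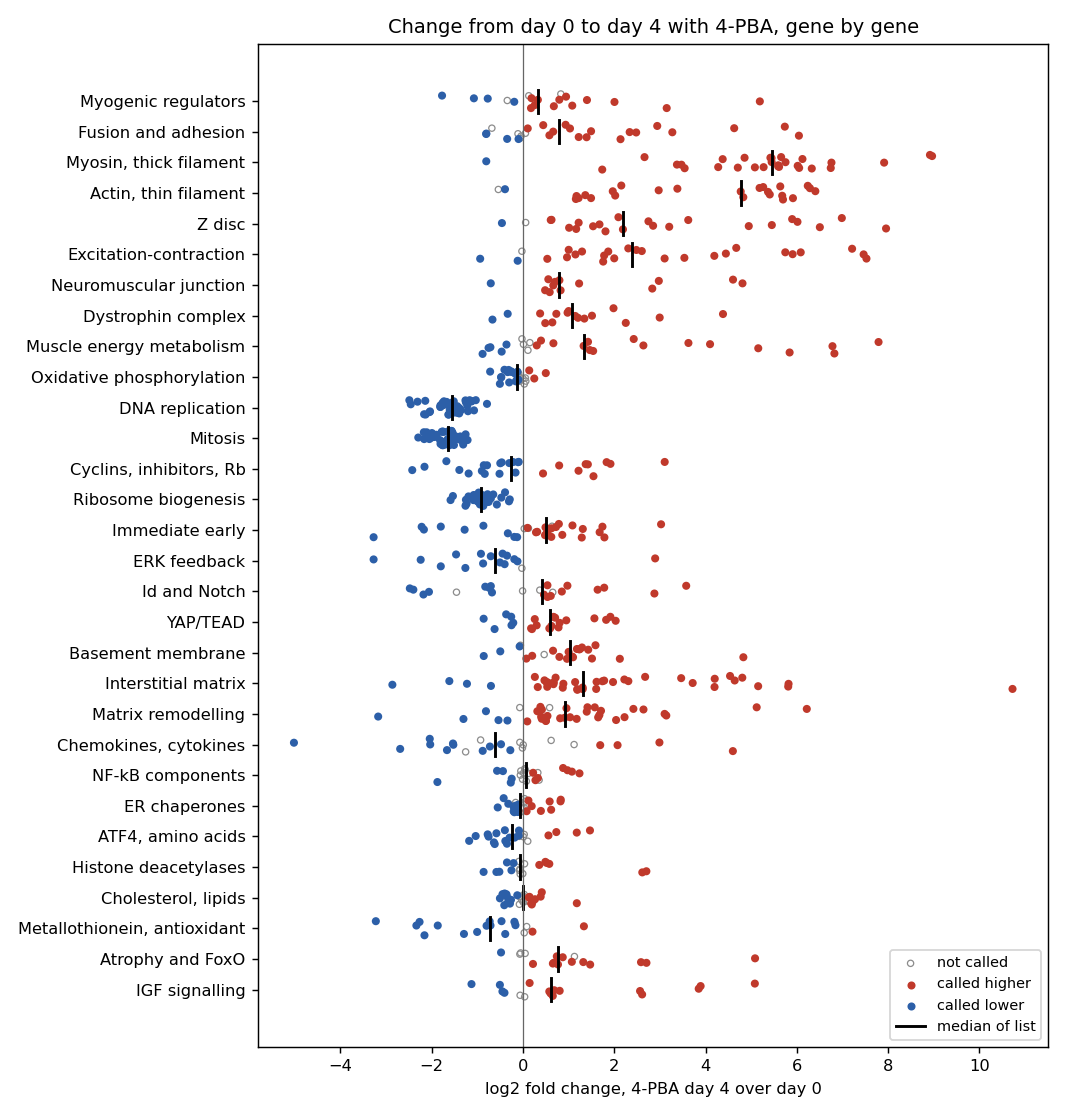
Log2 fold change from day 0 to day 4 with 4-PBA for every tested gene of 30 programmes, 1 point per gene, with called genes filled and a bar at the median of each list. The medians of the myosin and actin lists lie at 5.45 and 4.77, and every gene of the replication, mitosis and ribosome biogenesis lists lies below 0.

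The cell cycle programme fell in every tested replication and mitosis gene. All 41 tested DNA replication genes were called lower with 4-PBA, 40 of them at least 2-fold, with a median log2 fold change of -1.54. Their summed share went from 0.428 and 0.432% of normalised counts at day 0 to 0.1404 and 0.142% with 4-PBA, with DMSO at 0.134 and 0.1201%. Mcm2, a subunit of the replicative helicase, stood at 175 and 183 CPM at day 0 and 51.1 and 54.6 CPM with 4-PBA, a log2 fold change of -1.76 (SE 0.044, adjusted p 2.89e-26). Cdc6, which loads that helicase at origins, fell the furthest of the list, from 50.02 and 48.5 to 8.65 and 8.91 CPM. Rrm2, which makes deoxynucleotides, fell from 574 and 579 to 165 and 164 CPM.

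All 46 tested mitosis genes were called lower too, each at least 2-fold, with a median of -1.64. Cdk1, the kinase that drives entry into mitosis, stood at 229 and 236 CPM at day 0 and 67.3 and 68.3 CPM with 4-PBA, a log2 fold change of -1.78 (SE 0.096, adjusted p 4.23e-05). Its partner Ccnb1 fell from 171 and 172 to 48.01 and 50.1 CPM, and Plk1, a kinase of the spindle, from 139 and 137 to 34.3 and 34.3 CPM. Mybl2, a factor of the complex that activates these genes, fell most, from 70.9 and 70.1 to 14.4 and 14.3 CPM. None of these genes reached 0, and Top2a, the topoisomerase of dividing cells, still had 179 and 181 CPM with 4-PBA against 522 and 538 CPM at day 0. In bulk samples, fewer cells of a type and less RNA per cell cannot be told apart, here and for every other programme.

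The mitosis promoters below share TTTGAA and CCAAT, which are known from cell cycle genes: the first is the core of the element bound by the complex that holds Mybl2, the second is bound by NF-Y. They were chosen as examples with copies of both; capitals mark both motifs on either strand, and the sequences run 5′ to 3′ towards the start site on the minus strand of GRCm38.p6, from RefSeq. TTTGAA occurs 2, 1 and 2 times and CCAAT 3, 3 and 6 times in Cdk1, Ccnb2 (cyclin B2) and Top2a. Of the other mitosis genes searched this way and not printed, Cdc20 and Ube2c hold 1 copy of TTTGAA each. Ccnb1, Aurka, Plk1, Bub1 and Cenpa hold 0.
Cdk1, chr10:69352913-69353162: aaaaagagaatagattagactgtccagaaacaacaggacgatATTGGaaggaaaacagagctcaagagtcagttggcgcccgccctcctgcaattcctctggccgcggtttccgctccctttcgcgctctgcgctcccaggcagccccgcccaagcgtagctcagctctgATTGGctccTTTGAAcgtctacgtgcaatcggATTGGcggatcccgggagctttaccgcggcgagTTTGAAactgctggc
Ccnb2, chr9:70421555-70421804: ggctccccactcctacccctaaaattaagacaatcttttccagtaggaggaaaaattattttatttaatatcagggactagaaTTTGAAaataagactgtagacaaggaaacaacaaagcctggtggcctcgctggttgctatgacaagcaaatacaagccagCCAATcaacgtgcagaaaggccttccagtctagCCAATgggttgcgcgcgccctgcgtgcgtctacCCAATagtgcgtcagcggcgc
Top2a, chr11:99024190-99024439: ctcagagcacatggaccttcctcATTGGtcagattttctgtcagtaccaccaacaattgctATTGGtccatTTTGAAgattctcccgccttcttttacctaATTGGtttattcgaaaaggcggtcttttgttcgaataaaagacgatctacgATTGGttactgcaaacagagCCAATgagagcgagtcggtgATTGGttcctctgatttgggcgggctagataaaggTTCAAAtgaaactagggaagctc

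Of 39 promoters of 37 mitosis genes, 76.9% held CCAAT, against 33.8% of all promoters and 35% of those of tested genes. TTTGAA was held by 41% of them, against 16% of all promoters and 11.4% of those of tested genes. Of 39 promoters of 33 replication genes, 56.4% held CCAAT and 12.8% held TTTGAA. The CCAAT letters were also frequent in promoters of other lists, at 86.4% for chaperones of the endoplasmic reticulum and 75% for cholesterol synthesis.

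The regulators of the cycle changed in both directions. Ccnd1, the cyclin D1 that growth factors induce, fell from 601 and 597 CPM at day 0 to 111 and 112 CPM with 4-PBA, a log2 fold change of -2.42 (SE 0.033, adjusted p 1.64e-35). Ccnd3, the cyclin D3 of differentiating muscle, rose from 126 and 127 to 369 and 371 CPM. Per length, Ccnd1 stood above Ccnd3 at day 0 (127 against 14.4 RPKM) and below it with 4-PBA (23.7 against 42.1 RPKM). So Ccnd3 took the place of Ccnd1 as the D-type cyclin with the higher level of the pair.

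Cdkn1a, which encodes p21, rose from 195 and 187 to 672 and 693 CPM (log2 fold change 1.83, SE 0.038), and Rb1, the retinoblastoma protein, from 41.6 and 41.5 to 113 and 109.9 CPM. Cdkn1c, which encodes p57, was rare at day 0 (20 and 6 counts) and had 2.16 and 1.74 CPM with 4-PBA. Its log2 fold change of 3.11 was 4.48 without day 0 replicate 1 and 2.24 without day 0 replicate 2. Ccne2, a cyclin of the entry into S phase, fell from 50.1 and 47.8 to 11.2 and 10.8 CPM. In all, 9 of 26 members of this list were called higher and 17 lower, against 33.2% and 32.4% of all tested genes.

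Ribosome biogenesis fell as a whole: 32 of 32 genes were called lower, with a median log2 fold change of -0.92. Nop56, a core protein of the particles that methylate ribosomal RNA, fell most, from 288 and 283 to 94.4 and 95.8 CPM. The nucleolar proteins Npm1 and Ncl fell from 904 and 934 to 386 and 388 CPM and from 1070.1 and 1091 to 509 and 526 CPM. Myc, the growth factor target that promotes this programme, fell from 89.2 and 87.1 to 53.6 and 46.9 CPM and was lower than with DMSO, at 66.4 and 59.6 CPM (difference -0.33, SE 0.059, adjusted p 0.00295).

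**Figure D4:**
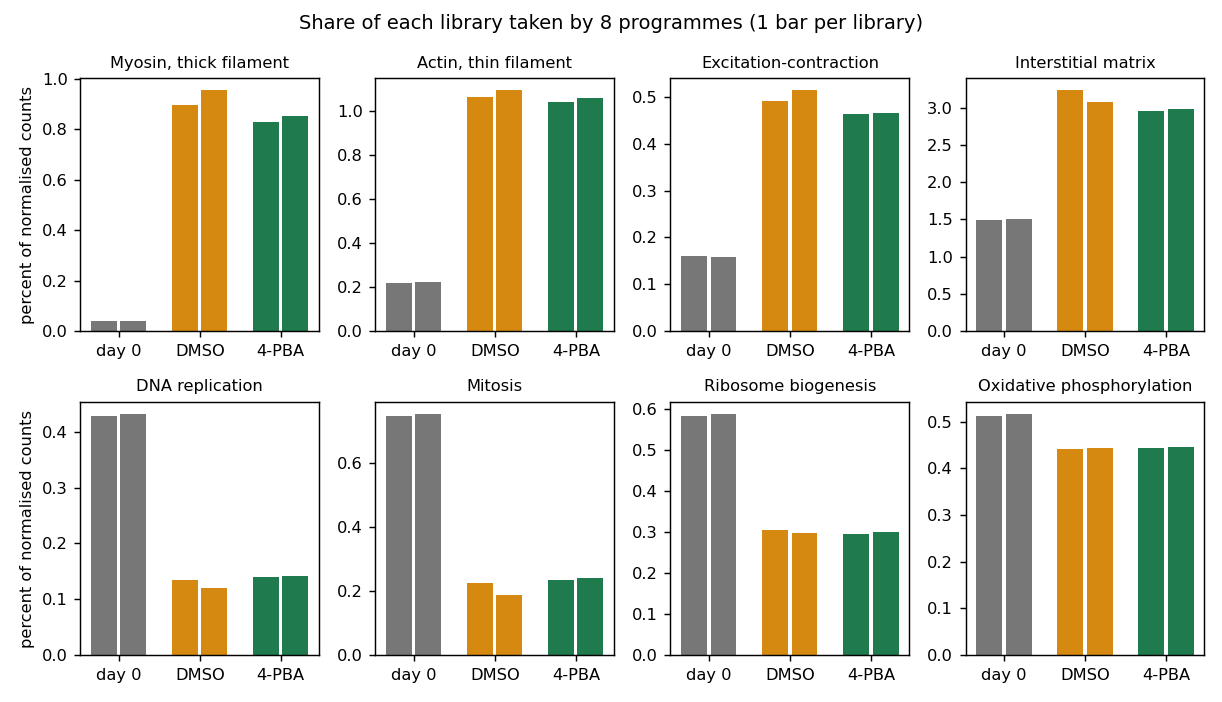
Summed CPM of 8 programmes as percent of all normalised counts, 1 bar per library in groups of 2, with axes that start at 0. With 4-PBA the myosin list takes 0.831% and 0.852% against 0.0411% and 0.0408% at day 0, and the mitosis list 0.235% and 0.239% against 0.744% and 0.751%.

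Immediate early genes, which respond to stimuli within minutes, were called higher in 20 of 32 cases and lower in 9. The shares over all tested genes were 33.2% higher and 32.4% lower. Fos rose from 2.53 and 2.32 to 24.4 and 14.96 CPM (log2 fold change 3.03, SE 0.34, adjusted p 0.00251). Egr1, a zinc finger factor named in the study's title, stood at 119 and 117 CPM at day 0 and 347 and 238 CPM with 4-PBA, where the 2 libraries differed. It was called (log2 fold change 1.31, SE 0.22, adjusted p 0.0141) but was lost when any 1 day 0 or DMSO library was left out (adjusted p between 0.0526 and 0.0911). Its DMSO libraries held 286 and 274 CPM, inside the range of the 4-PBA libraries. Fosl1, the Fos relative of growing cells, fell the furthest of the list, from 188 and 182 to 20.02 and 18.3 CPM.

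The feedback genes of the ERK pathway, which are read as its output, fell in 14 of 16 cases, with a median of -0.60. Dusp4, a phosphatase of ERK, stood at 242 and 243 CPM at day 0 and 71.1 and 67.99 CPM with 4-PBA (log2 fold change -1.80, SE 0.039). With DMSO it fell less, to 108 and 99.1 CPM, and the difference from 4-PBA had the smallest p of all genes (-0.57, SE 0.039, adjusted p 2.48e-11). Spry2, an inhibitor of receptor signalling, stood at 72.8 and 73.4 CPM at day 0, 70.1 and 64.5 CPM with 4-PBA and 87.02 and 85.4 CPM with DMSO (difference -0.36, adjusted p 1.15e-06). Both genes therefore ended lower in the 4-PBA libraries than in the DMSO libraries. Spry1, a Sprouty gene also known from quiescent satellite cells, was the 1 member called higher, from 2.82 and 3.96 to 28.1 and 23.5 CPM.

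The Id proteins, which block MyoD by binding its partners, fell together with 4-PBA. Id1 went from 56.05 and 57.9 to 12.3 and 12.9 CPM, Id2 from 41.4 and 44.1 to 8.01 and 8.197 CPM and Id3 from 81.4 and 79.1 to 15.2 and 13.6 CPM. Id2 ended below DMSO (11.05 and 9.53 CPM, difference -0.34, adjusted p 0.0125), a call lost without DMSO replicate 1 (adjusted p 0.145) or either 4-PBA library. Of the Notch genes of the same list, the receptor Notch3 rose from 98.7 and 99.7 to 341 and 341 CPM, the ligand Dll1 from 1.89 and 2.07 to 14.6 and 14.7 CPM and the target Heyl from 5.25 and 4.29 to 57.9 and 54.3 CPM. Over the list 10 of 22 were called higher and 8 lower, against 33.2% and 32.4% of all tested genes.

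TEAD factors and the targets of their coactivator YAP rose in 16 of 22 cases and fell in 6. Among all tested genes the shares called were 33.2% higher and 32.4% lower. Ccn2, a matricellular target also known as CTGF, rose from 177 and 179 to 727 and 731 CPM (log2 fold change 2.03, SE 0.12, adjusted p 0.000625). Amotl2, an inhibitor of YAP that is itself a target, rose from 123 and 119 to 205 and 209.6 CPM and was above its DMSO level of 172 and 169 CPM (difference 0.29, SE 0.033, adjusted p 6.7e-07).

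Matrix genes rose on a broad front. In the interstitial matrix 36 of 40 tested genes were called higher, 24 of them at least 2-fold, and 4 lower, with a median log2 fold change of 1.31. Their summed share went from 1.495 and 1.51% of normalised counts at day 0 to 2.96 and 2.98% with 4-PBA. Fn1, fibronectin, gained more CPM than any other gene, from 4795 and 4808 to 8799 and 8946 CPM. It gained more with DMSO, at 10569.6 and 9965 CPM (difference -0.21, SE 0.026, adjusted p 1.83e-06). The fibrillar collagen Col1a1 rose from 296 and 295 to 1449 and 1478 CPM and Col3a1 from 1664 and 1690.0 to 4134 and 4179 CPM. The proteoglycan Dcn, decorin, rose from 8.25 and 8.05 to 303 and 277 CPM, and Postn, periostin, from 11.8 and 14.4 to 246 and 243 CPM.

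Cilp, a cartilage matrix protein, had the largest fitted rise of the well-covered genes, but day 0 held only 0 and 4 counts. It reached 63.2 and 57.5 CPM with 4-PBA and 50.7 and 57.8 CPM with DMSO, and its log2 fold change of 10.73 was 10.00 without day 0 replicate 1 and 14.9 without day 0 replicate 2, a fitted value against 0 counts that depends on the prior count. Not all matrix genes rose: Fbln1, fibulin, fell from 81.3 and 76.01 to 26.1 and 25.3 CPM, with 21.03 and 19.9 CPM with DMSO (difference 0.33, adjusted p 0.000287).

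The basement membrane list rose in 17 of 22 genes. Col4a1, a chain of its collagen network, stood at 475 and 476 CPM at day 0, 1006 and 1005 CPM with 4-PBA and 877 and 899 CPM with DMSO (difference 0.18, adjusted p 5.43e-05). Of the linker proteins, Nid2 rose from 87.1 and 85.2 to 261 and 257 CPM while Nid1 fell from 765 and 779.8 to 423 and 429 CPM. Among enzymes that remodel the matrix 28 of 35 were called higher and 5 lower. The gelatinase Mmp2 rose from 35.7 and 35.9 to 147 and 148 CPM, and the stromelysin Mmp10 fell from 13.4 and 13.1 to 1.42 and 1.51 CPM.

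Among chemokines and cytokines 11 of 22 tested genes were called lower, 7 of them at least 2-fold, and 4 higher, each at least 2-fold. The chemokine Cxcl5 fell from 14.01 and 16.8 to 0.515 and 0.435 CPM, a log2 fold change of -5.02 (SE 0.18). Il33, an alarm cytokine, fell from 100.3 and 104 to 32.99 and 31.4 CPM and was below DMSO, at 41.1 and 41.2 CPM (difference -0.35, SE 0.048, adjusted p 9.34e-06). Components of NF-kB signalling, also named in the title, had 7 of 22 genes called higher, 5 lower and 10 not called. Over all tested genes 33.2% were called higher and 32.4% lower. The median of the NF-kB list was 0.063 (0.101 without day 0 replicate 2). At least a 2-fold change was seen for 2 of the 7 called higher and 1 of the 5 called lower. Relb and Map3k14, the transcription factor and the kinase of the alternative branch, rose from 13.9 and 12.9 to 27.5 and 28.6 CPM and from 26.9 and 24.05 to 58.5 and 61.2 CPM. Against DMSO, 5 of the 22 genes were called lower with 4-PBA and 0 higher. Every difference from DMSO was below 0, with a median of -0.097 and the highest at -0.012 on the log2 scale.

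Endoplasmic reticulum chaperones, of interest because 4-PBA is used to ease protein folding, changed little in size. Their calls were near the shares over all tested genes, 33.2% higher and 32.4% lower. Of 25 genes, 8 were called higher and 10 lower, none 2-fold, with a median of -0.063; 6 were called lower without day 0 replicate 2. Hspa5, the main chaperone of the compartment, stood at 860.3 and 891 CPM at day 0 and 891 and 900.0 CPM with 4-PBA and was not called (log2 fold change 0.032, SE 0.032, adjusted p 0.399). Hsp90b1 fell from 1150.5 and 1217 to 947 and 949 CPM, and Herpud1, a gene of protein degradation there, rose from 46.6 and 46.5 to 83.8 and 81.03 CPM. Among ATF4 and amino acid genes 14 of 22 were called lower. Phgdh, the first enzyme of serine synthesis, fell the furthest of them, from 291 and 295 to 124 and 135 CPM.

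Histone deacetylase genes, of interest because 4-PBA inhibits such enzymes, had 6 of 18 called higher, 6 lower and 6 not called. These counts were near the shares over all tested genes, 33.2% higher and 32.4% lower. Whether 4-PBA inhibits the products of all 18 was not tested. Hdac9, a muscle deacetylase that represses MEF2, rose from 15.5 and 16.7 to 95.3 and 103 CPM, and Hdac11 from 2.26 and 2.24 to 14.7 and 14.6 CPM. Hdac1 fell from 112 and 110.4 to 74.9 and 80.6 CPM. Cholesterol and fatty acid synthesis had 9 of 27 genes called higher and 10 lower, again near the shares over all tested genes. Scd1, the stearoyl-CoA desaturase, was the 1 member to change 2-fold, from 579 and 597 to 1329 and 1338 CPM.

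Antioxidant genes and metallothioneins fell in 14 of 19 cases, with a median of -0.71. Nqo1, a target of the stress factor Nrf2, fell from 50.3 and 50.6 to 5.41 and 5.39 CPM (log2 fold change -3.22, SE 0.079). Mt1 and Mt2, which bind zinc and copper, fell from 83.4 and 80.2 to 18.4 and 18.3 CPM and from 42.6 and 43.6 to 9.41 and 8.54 CPM. With DMSO, Mt2 fell further, to 5.499 and 6.92 CPM (difference 0.52, SE 0.095, adjusted p 0.000571). Slc30a1, a zinc exporter, was also higher with 4-PBA than with DMSO, at 18.3 and 19.8 against 12.96 and 14.03 CPM (difference 0.49, adjusted p 7.08e-05), with 16.5 and 16.4 CPM at day 0.

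Genes of the FoxO and atrophy list rose in 12 of 17 cases and fell in 1, against 33.2% and 32.4% of all tested genes. Trim63, which encodes the ubiquitin ligase MuRF1 of the sarcomere, rose from 0.329 and 0.399 to 13.1 and 12.1 CPM, and the ligase Fbxo32 from 24.4 and 23.2 to 66.8 and 65.1 CPM. Of the IGF pathway 11 of 17 genes were called higher and 4 lower. The growth factor Igf1 stood at 0.946 and 0.684 CPM at day 0 and 28.1 and 25.8 CPM with 4-PBA, a log2 fold change of 5.08 (SE 0.12, adjusted p 3.31e-28). DMSO reached 19.6 and 21.5 CPM, below both 4-PBA libraries (difference 0.39, SE 0.076, adjusted p 0.00127), a call lost without 4-PBA replicate 1 (adjusted p 0.0834). H19, an imprinted noncoding RNA of differentiating muscle, rose from 278 and 274 to 4064 and 4136 CPM, while Igfbp2, an IGF binding protein, fell from 689.8 and 678 to 305 and 322 CPM.

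Few genes switched on or off in the literal sense of none at one time and some at the other. At day 0, 25 genes had at most 3 counts in each library and then at least 1 CPM in each 4-PBA library; 101 met this with a limit of 10 counts. Of the 25, Mybpc2, a fast myosin binding protein, is in the programme lists, and it was at least 96.2-fold higher with 4-PBA, at 5.11 and 4.94 CPM. Outside the lists, Fxyd6, a regulator of the sodium pump, reached 7.28 and 7.78 CPM, at least 144-fold above day 0. With DMSO, Fxyd6 had 6.97 and 6.403 CPM and Mybpc2 5.02 and 5.37 CPM. In the other direction 3 genes were silent with 4-PBA and present at day 0, Tpsab1 (a mast cell tryptase), Lce1g and Gm41331, none above 2.10 CPM; a limit of 10 counts gave 17.

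The deepest falls of well-covered genes were in Prl2c3 and Prl2c2, proliferin genes of growing cells. Prl2c3 fell from 156 and 161 CPM at day 0 to 0.322 and 0.242 CPM with 4-PBA, a log2 fold change of -9.13 (SE 0.094). Prl2c2 fell from 41.6 and 44.6 to 0.0322 and 0.129 CPM; its log2 fold change of -9.03 was -8.36 when 4-PBA replicate 1 was left out and -10.3 when 4-PBA replicate 2 was left out. These 2 are near-identical paralogs whose reads could be exchanged, so their separate values are uncertain. Reads of antisense genes are uncertain too, since the strand setting of the counting is not given in the sources used here: 68 of the 258 genes chosen by the naming rule share bases with an opposite-strand gene in the GENCODE M21 annotation, among them Casq1, Ccnd1, Ckm, Col4a1, Fn1, Fosl1, Myh7, Neb, Nop56, Rb1 and Ttn. Whether this touched their values was not tested. Serpinb2, an inhibitor of plasminogen activators, fell from 29.8 and 28.6 to 0.193 and 0.193 CPM, and Selp, an adhesion molecule, from 25.8 and 25.8 to 0.225 and 0.193 CPM. By CPM lost, the intermediate filament Vim led, from 7257 and 7180.0 to 3237 and 3311 CPM, followed by the secreted protein Spp1, osteopontin, from 2423 and 2456 to 793 and 828 CPM. The cytoplasmic actins Actb and Actg1 fell as well, from 4228 and 4288 to 3113 and 3173 CPM and from 4425 and 4418 to 3220.3 and 3239.8 CPM.

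Where the day 4 levels with 4-PBA and DMSO differed, the lists differed in direction. Of the contractile lists, 10 of 29 myosin genes, 7 of 25 actin genes, 7 of 23 Z disc genes and 8 of 26 coupling genes were called lower with 4-PBA, and Tpm1 of these 4 lists was called higher. The background was 2.78% of tested genes called lower. Medians of the difference were -0.16, -0.094, -0.11 and -0.079 on the log2 scale, small beside the rises from day 0 (for the coupling genes -0.13 if DMSO replicate 1 was left out). Without 4-PBA replicate 1 the counts were 6, 3, 4 and 3; without DMSO replicate 1 the actin count was 14 and the coupling count 13, and without 4-PBA replicate 2 the coupling count was 5.

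Of the cell cycle lists, 14 of 41 replication genes and 16 of 46 mitosis genes were called higher with 4-PBA than with DMSO and none lower, against a background of 2.13% called higher. The median differences were 0.17 and 0.21. These counts turned on single libraries. Without DMSO replicate 2, which had the lowest mitosis share (0.225 and 0.188% in DMSO replicates 1 and 2, 0.235 and 0.239% with 4-PBA), they were 4 and 5. Without DMSO replicate 1 they were 25 and 46, without 4-PBA replicate 1 7 and 4, and without 4-PBA replicate 2 3 and 1. The genes themselves were called lower than day 0 in both treatments, 41 replication and 46 mitosis genes with DMSO.

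The ERK feedback genes were called lower with 4-PBA than with DMSO in 7 of 16 cases, with a median of -0.20, and in 4 cases without 4-PBA replicate 2. Ribosome biogenesis had 1 gene of 32 called (Myc) and oxidative phosphorylation none. In the interstitial matrix 8 genes were higher with 4-PBA and 2 lower (8 lower without DMSO replicate 2), and in NF-kB signalling 5 were lower (3 without either 4-PBA library). Outside the lists, Grem1, a secreted inhibitor of BMP ligands, fell from 241 and 241 CPM at day 0 to 23.3 and 21.1 CPM with 4-PBA and 34.5 and 32.9 CPM with DMSO (difference -0.60, SE 0.047, adjusted p 2.2e-10). Sox8, a transcription factor, rose from 1.07 and 0.9401 to 19.01 and 19.8 CPM with 4-PBA and 10.3 and 11.5 CPM with DMSO (difference 0.83, SE 0.089, adjusted p 1.67e-07). Gadd45g, a growth arrest gene, rose from 59.1 and 60.5 to 137 and 141 CPM with 4-PBA and 101 and 105 CPM with DMSO (difference 0.44, adjusted p 1.37e-09).

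**Figure D5:**
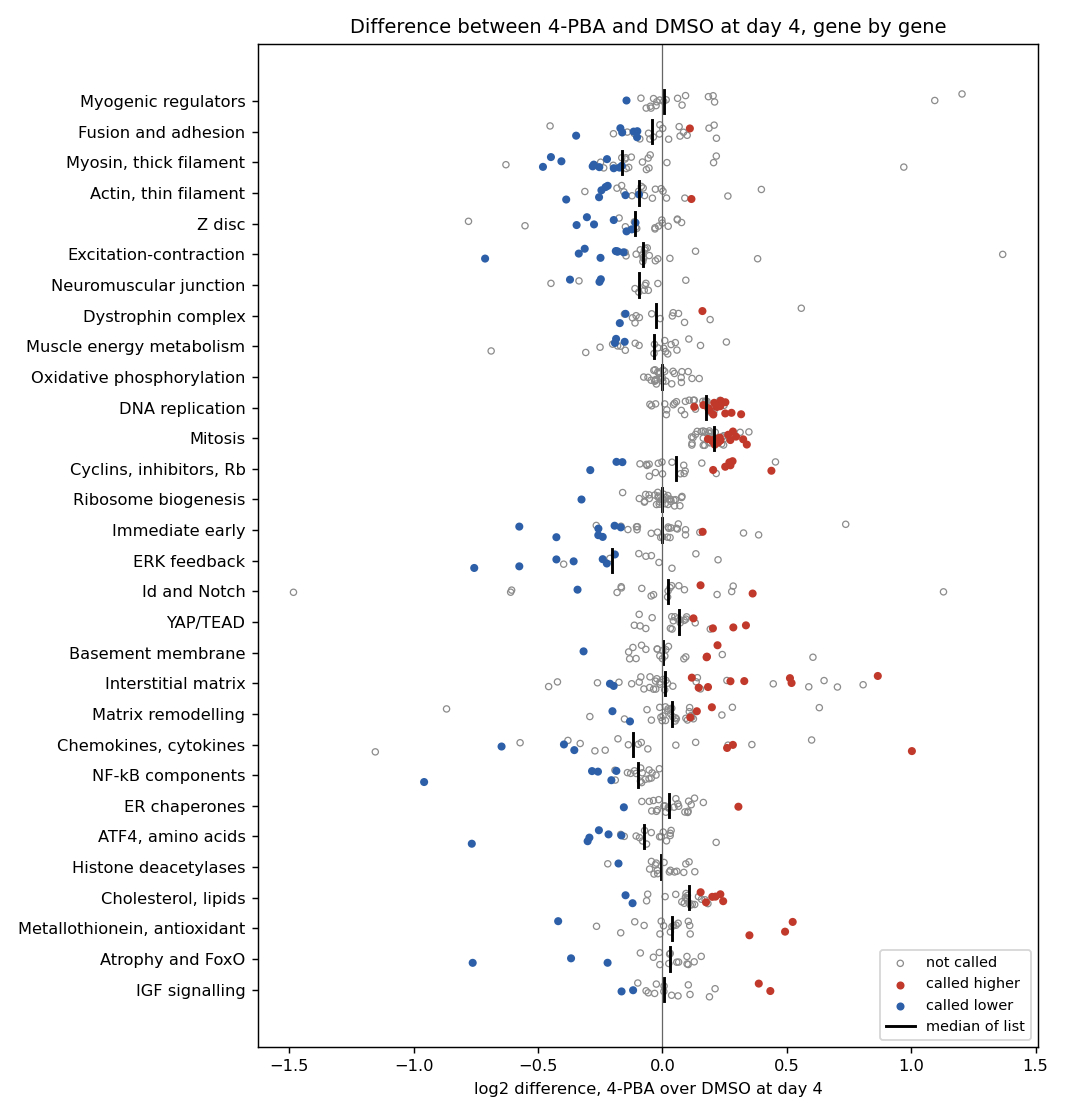
Log2 difference between 4-PBA and DMSO at day 4 for every tested gene of the same 30 programmes, with called genes filled and a bar at each list's median. Medians lie at -0.16 for the myosin list, 0.17 for replication, 0.21 for mitosis and -0.20 for ERK feedback.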

How the data were processed

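RNA sequencing of total RNA from C2C12 cells was deposited as 1 table of raw counts per gene symbol, with 2 libraries for each of 3 groups. Reads were mapped to GRCm39 per the submitters' processing notes; the aligner, the counter, the annotation and the strand setting are not given in the sources used here. The labels' protocols name a directional library kit and place all libraries in batch 1.

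From these deposited counts, edgeR 4.0.16 (R 4.3.3) fitted 1 quasi-likelihood model over the 6 libraries after its expression filter and TMM scaling, with residual degrees of freedom of 3 and Benjamini-Hochberg adjustment over all 17433 tested genes. The fit was run on simulated data in which 200 of 16975 genes changed, and it recovered 185 of them with 10 false calls. The real comparison called 65.6% of genes, so the simulation does not test the fit at such a share. With 2 libraries against 2, an exact permutation test cannot go below p = 0.3333. Exon lengths came from GENCODE M21, in which 36556 symbols of the table were found, and promoters from RefSeq for GRCm38.p6. Symbols split over several rows (Aldoa, Ddit3, Atp5o) are not reported.

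The members and gene lists were chosen with earlier results of these data known. Named genes were each list's preset genes, up to 3 more per list with the largest called change and at least 5 CPM, 1 called against the list's direction, the smallest adjusted p against DMSO, and the 10 most changed genes overall (at least 10 CPM). Ccnb2, Ccnd3, Cdk1, Csrp3, Lpl, Mmp2, Myf5, Myl3, Mylpf, Npm1, Pax7, Plk1, Ppp1r3a, Runx2, Sypl2 and Tpm1 were named after their values were seen. Alternatives changed the scaling, the filter, the test (DESeq2 1.42.0), the samples fitted, the threshold and the count limit, added a replicate block and left out each library.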

Additional observations from a re-analysis of the deposited data

Results flagged for a closer look

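The change from day 0 differed between 4-PBA and DMSO for 855 genes (4.90% of those tested; edgeR's quasi-likelihood test, adjusted p under 0.05), which was flagged because the difference between the 2 treatments was itself tested. At an unadjusted p under 0.05 there were 2908 such genes, and 12 of the 855 differed at least 2-fold.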

How the results depend on the processing

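Against day 0, edgeR's counts stayed within 1.5 times of those reported under every alternative run, from 5015 to 5891 genes higher and from 5062 to 5817 lower, and no scaling moved the median of all genes by more than 0.0184 on the log2 scale or gave opposite calls. Of the values of named genes against day 0, 3561 kept their call, 32 lost it and 4 gained it. The counts against DMSO were less stable. At an adjusted p under 0.01 they were 164 higher and 260 lower, of which 40 and 59 in the programme lists; with no filter beyond 1 count, 115 programme genes were higher. Leaving out 1 library gave between 112 (without 4-PBA replicate 2) and 634 (without DMSO replicate 1) genes higher and between 183 (without 4-PBA replicate 2) and 583 (without DMSO replicate 2) lower. For programme genes the ranges were 29 to 142 higher and 50 to 109 lower. The difference from DMSO reversed for 3 genes when 1 library was left out, within ranges of -0.235 to 0.306 for Egr1, -0.093 to 0.195 for Ccn2 and -0.0872 to 0.069 for Actb (log2 scale). A limit of 10 counts gave 101 genes silent at day 0 and 17 silent with 4-PBA. The causes were not tested. Replicate numbers did not pair the samples (correlation of deviations -0.0851 between day 0 and 4-PBA, -0.0877 between DMSO and 4-PBA), and a replicate block gave 5713 genes higher and 5596 lower than day 0, and 332 higher and 436 lower than DMSO. Genes with few counts in 1 group, such as Cilp and Casq1, have fold changes that the depth limits most.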

Other observations

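Some of the clearest changes lay outside the programme lists. Krt13, a keratin of epithelia, had 16.6 and 17.3 CPM at day 0 and 0.209 and 0.2899 CPM with 4-PBA. Prr9 had 11.7 and 12.1 CPM at day 0 and 0.0805 and 0.0644 CPM with 4-PBA. With DMSO too they were low, Krt13 with 0.412 and 0.297 CPM and Prr9 with 0.0317 and 0.0539 CPM. Nes, the intermediate filament nestin of young myotubes, rose from 1455 and 1506 to 3037 and 3105 CPM, while Vim fell. Abra, an actin-binding activator of SRF signalling, rose from 0.0823 and 0.0997 to 11.8 and 11.4 CPM, with 11.9 and 11.6 CPM with DMSO.

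Bach1, a repressor of haem and antioxidant genes, rose from 64.7 and 61.1 to 109 and 104 CPM with 4-PBA and reached 143 and 144 CPM with DMSO (difference -0.43, edgeR adjusted p 2.59e-09). Pvr, a nectin-like adhesion receptor, stood at 107 and 108 CPM at day 0, 91.7 and 93.00 CPM with 4-PBA and 123 and 118 CPM with DMSO (difference -0.39, edgeR adjusted p 1.28e-08), so its 4-PBA libraries lay below day 0 and its DMSO libraries above.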
